A study of Mus musculus with 2 samples.

Results

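The clustered histone genes of the mouse were examined in single cells of the ocular area at the 26 somite stage (E9.25). They were chosen by symbol, as all genes named Hist1h, Hist2h, Hist3h or Hist4h, and made up 69 of the 27998 gene identifiers counted. The 69 identifiers carried 68 symbols, since Hist2h2bb stands for 2 of them, which were kept apart. One of them, ENSMUSG00000050936, is called Gm42743 and a lincRNA (long non-coding RNA) in the annotation used below. It was kept among the H2B genes and had 16 UMIs (WT) and 24 UMIs (KO). One library of a single wild-type (WT) C57BL/6J embryo and one of a single Mab21l1-null (KO) embryo of the same strain were made with 10x Chromium, from the paired optic areas dissected by hand. Mab21l1 encodes a MAB21-domain protein of the developing eye. With 1 embryo and 1 library per genotype, genotype, embryo and library cannot be told apart, and no test between genotypes was possible. The intervals given here are exact 95% intervals, and they cover counting error only.

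Histones are the proteins around which DNA is wound: H2A, H2B, H3 and H4 form the core of the nucleosome, and the linker histone H1 binds where DNA enters and leaves it. Most of the clustered genes are replication-dependent, made in bulk in S phase when new DNA must be packed, and their mRNA ends in a conserved stem-loop bound by SLBP (stem-loop binding protein) in place of a poly(A) tail. Single-cell 3′ libraries are primed on poly(A), so a clustered histone gene is counted where its transcript carries a tail or an internal run of A, and its count is not a measure of its whole mRNA. Some clustered genes also give longer, polyadenylated transcripts, and the replication-independent histones, such as H2afz and H3f3b, are polyadenylated throughout.

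The libraries held 43636657 unique molecular identifiers (UMIs) in 1745 barcodes (WT) and 53148253 in 2458 (KO). Limits on cells (1500 to 8000 genes, at most 5% mitochondrial UMIs) left 1680 cells with a median of 21037 UMIs and 2404 cells with a median of 18135. Levels are UMIs per 1000000 UMIs of the same cells (CPM). Mab21l1 itself was counted at 20.3 CPM in the WT-labelled library and, higher, at 32.5 CPM in the KO-labelled one. The direction differed between cell classes, gated as described further on: in ectoderm-like cells it was lower in the KO-labelled library, at 87.6 CPM (95 UMIs) against 37.0 CPM (28 UMIs) and a ratio of 0.423 (0.267 to 0.650), and in optic vesicle-like cells higher, at 29.1 and 51.4 CPM and a ratio of 1.77 (1.61 to 1.94). The former runs the way the labels say and the latter does not, and which part of the gene the null allele lacks is not given in the sources used here. Each direction thus rests on the labels, and values are given "with the label WT" or "with the label KO". The libraries shared 15 barcode sequences. Neither library held a UMI of Ddx3y, Eif2s3y, Kdm5d or Uty, which lie on the Y chromosome. Globin UMIs, which mark free RNA outside erythrocytes, lay between 179 and 248 CPM in the other 7 cell classes with the label WT and between 407 and 778 CPM in those with the label KO.

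The 3′ ends of the members decide what a poly(A)-primed library can see of them, so they are shown first. Of the 69 identifiers, 67 matched GENCODE M21 (GRCm38), and all 67 had a transcript sequence. They lie on chromosome 13 (53 genes, the Hist1 cluster), chromosome 3 (11 genes, Hist2), chromosome 11 (2 genes, Hist3) and chromosome 6 (1 gene, Hist4). For each gene the longest annotated transcript was used, and bases past its annotated end could not be searched. Some transcripts were short, such as those of Hist1h4k (312 bases) and Hist1h2an (393 bases). A feature not found in a transcript is thus not shown to be missing from the gene. The 16-base histone stem-loop was searched on the transcript's own strand, allowing any base where its 2 forms below differ within the stem, and 30 of the 67 transcripts held it. It occurred in 2 forms, the first in 23 transcripts and the second in 7, shown here as DNA with the TTTC of the loop in capitals.
First form: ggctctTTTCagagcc
Second form: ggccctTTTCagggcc
A poly(A) signal (AATAAA or ATTAAA) stood in the last 50 bases of 16 transcripts. Only the longest run of A in each transcript was recorded. In 2 transcripts it held at least 8 A and began within 100 bases of the annotated end. These were the transcripts of Hist1h2ap and Hist1h2ao, which encode H2A copies and share one sequence there. Longest runs of at least 8 A further from the end stood in the transcripts of Hist1h2ae, Hist1h1d, Hist1h2be, Hist1h2ac and Hist1h2bc. Other runs nearer the end of these transcripts were not searched for. In Hist1h2ae, also an H2A gene, the run of 8 A begins 179 bases from the end, and 151 bases follow the stem-loop. The sequences of Hist1h2ap and Hist1h2ao are shown since Hist1h2ap held the most UMIs of all members, and the run, of 12 A and in capitals, is followed directly by the stem-loop.
Hist1h2ap: ccgaaaagAAAAAAAAAAAAggctcttt
Hist1h2ao: ccgaaaagAAAAAAAAAAAAggctcttt

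Near-identical copies limit the members' counts, since the sequence of a read that fits 2 genes does not say from which of them it came. Each transcript's last 300 bases were cut into every stretch of 50 bases, and each stretch was looked up, on both strands, in the transcripts of all other annotated genes. In a short transcript, such as the 312 bases of Hist1h4k, the last 300 bases were nearly the whole transcript. The end compared is thus the annotated one and need not be the end of the mRNA. In 49 of 67 members at least 1 stretch was found in another gene, in 36 at least 50% of them, and in 12 all of them. Sharing was least common in the linker histones, with 1 of 6 H1 genes at 50% or more, against 13 of 19 H2A, 9 of 17 H2B, 8 of 12 H3 and 5 of 13 H4 genes. An exon of another gene overlapped 23 members on the other strand and 8 on the same strand. The count of a member with at least 50% of its end shared is thus taken as uncertain as that of a single gene. Matches on the other strand, such as those of Hist2h3b to Gm20628, counted as shared too and can overstate this. The shares were not split by strand.

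The start regions of the members shared motifs too. RefSeq (GRCm38.p6) promoters, windows of 300 bases that begin upstream of the start and end 50 bases after it, were matched to 61 members and searched on both strands, a promoter counting once however many matches it held. The CCAAT box stood in 52 of 61 (85.3%) against 37.9% of all 27025 promoters, and by family in 6 of 6 H1, 17 of 17 H2A, 16 of 16 H2B, 10 of 10 H3 and 3 of 12 H4 genes. TATAAA, the motif of the TATA box, stood in 35 of 61 (57.4%) against 14.2% of all. A match to any of these motifs counted at any place in the window, so it does not show a working element. The octamer ATTTGCAT, the OCT1 site known from H2B promoters, stood in 13 of 61 (21.3%) against 1.75% of all, in 7 of the H2A and 6 of the H2B genes and in none of the other families. Some H2A and H2B genes, such as Hist1h2ag and Hist1h2bj, lie head to head, so their windows can overlap and a match can count for both. The members' promoters are thus not independent of each other. GGTCC, part of an element known from H4 promoters, stood in 26 of 61 (42.6%) against 45.4% of all, but in 11 of 12 H4 genes. The promoters of 3 leading members are printed to show these letters in place, 5′ to 3′ along the gene's strand, with matches to CCAAT and TATAAA on either strand in capitals: the linker histone gene Hist1h1b (chr13:21780576-21780875, minus strand), the H2B gene Hist3h2ba (chr11:58948661-58948960, plus strand) and the H4 gene Hist1h4i (chr13:22041313-22041612, minus strand), which held no CCAAT.
Hist1h1b: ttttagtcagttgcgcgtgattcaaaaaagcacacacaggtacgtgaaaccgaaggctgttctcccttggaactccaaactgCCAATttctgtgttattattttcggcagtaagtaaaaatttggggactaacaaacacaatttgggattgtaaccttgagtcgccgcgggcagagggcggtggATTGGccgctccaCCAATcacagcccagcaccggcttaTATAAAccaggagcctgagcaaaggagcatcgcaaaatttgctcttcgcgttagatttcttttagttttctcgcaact
Hist3h2ba: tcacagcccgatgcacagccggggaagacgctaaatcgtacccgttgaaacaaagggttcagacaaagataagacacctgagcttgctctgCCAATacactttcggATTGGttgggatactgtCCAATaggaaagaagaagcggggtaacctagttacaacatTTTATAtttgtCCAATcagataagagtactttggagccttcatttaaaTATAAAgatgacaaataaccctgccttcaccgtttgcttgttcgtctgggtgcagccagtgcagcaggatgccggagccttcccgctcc
Hist1h4i: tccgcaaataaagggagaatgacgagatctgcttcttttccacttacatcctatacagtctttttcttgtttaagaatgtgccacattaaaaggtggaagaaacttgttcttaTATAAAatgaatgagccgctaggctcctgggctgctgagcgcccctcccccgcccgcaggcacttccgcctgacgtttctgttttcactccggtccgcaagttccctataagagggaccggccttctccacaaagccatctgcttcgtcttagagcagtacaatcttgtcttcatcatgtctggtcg

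Clustered histone UMIs were found in nearly every cell. At least 1 was counted in 1676 of 1680 cells (99.8%) with the label WT and in 2388 of 2404 cells (99.3%) with the label KO, with a median of 25 and 24 member UMIs and of 10 and 9 members per cell. Cells differed widely: the median of a cell's own summed level was 1168 CPM, with quartiles of 512 and 1967 CPM, with the label WT and 1165 CPM, with quartiles of 494 and 2166 CPM, with the label KO. Of the 69 members, 65 had at least 1 UMI in kept cells, 60 at least 20, 46 at least 100 and 14 at least 1000. Those with none were the H2B genes Hist1h2ba, Hist1h2bq and Hist1h2br and the H4 gene Hist1h4m. For each of these the interval reached up to 0.0881 CPM with the label WT and 0.0704 CPM with the label KO.

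A few members held most of the signal. The 5 highest held 70.3% of the members' UMIs with the label WT and 76.3% with the label KO. By family, H2A held 40.3% and 46.4%, H1 35.8% and 32.5%, H4 13.5% and 11.8%, H2B 7.57% and 7.12%, and H3 2.87% and 2.12%. These shares are of counted UMIs and do not give the proportions of histone mRNA or protein. The 16 members with an annotated poly(A) signal at the end had a median of 256 UMIs over both libraries, against 172 for the 51 without one, and the ranges overlapped (0 to 10791 and 0 to 36108).

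**Figure D1:**
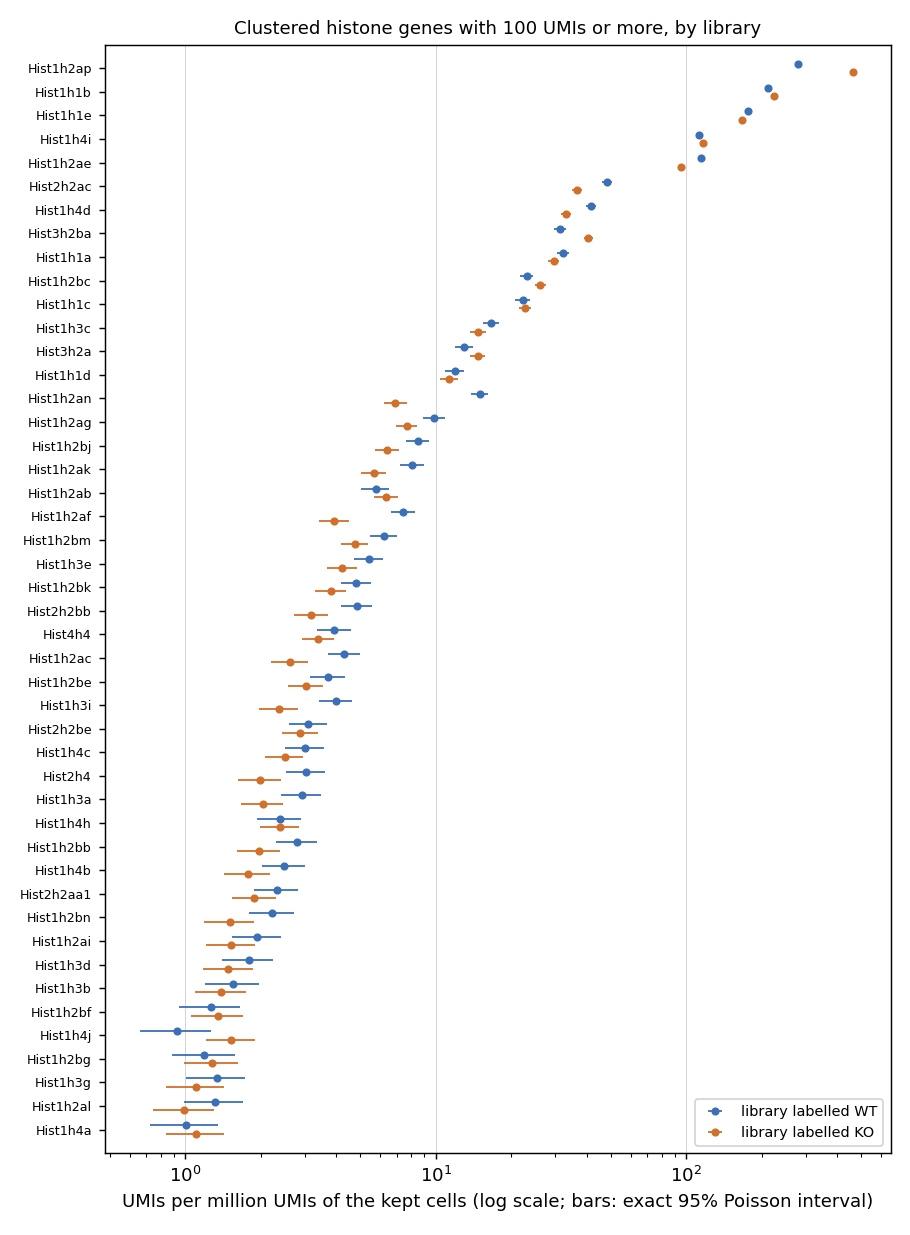
Level of the 46 clustered histone genes with 100 UMIs or more in the kept cells, in CPM on a log scale, with blue points for the library labelled WT, orange points for the library labelled KO and bars for the exact 95% Poisson interval. Hist1h2ap is the highest in both libraries, and 34 of the 46 are lower in the library labelled KO than in the library labelled WT.

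The H2A genes held both the highest level and the widest contrasts between libraries. Hist1h2ap, an H2A copy whose A run is shared with Hist1h2ao (chr13:21833026-21833507, minus strand), had 11739 UMIs (280.3 CPM) with the label WT and 24369 UMIs (465 CPM) with the label KO. Its ratio of KO over WT was 1.66 (1.62 to 1.70). All stretches of its end were shared with Hist1h2ao, to which only 16 and 14 UMIs were assigned, so the counts of these loci cannot be told apart. What set the reads of Hist1h2ap apart from those of its copies in the counting was not tested.

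Hist1h2ae, at 115 CPM (WT) and 94.9 CPM (KO), had a ratio of 0.827 (0.794 to 0.860). Hist2h2ac, a member of the Hist2 cluster, stood at 48.4 and 36.5 CPM, a ratio of 0.755 (0.709 to 0.805). Hist1h2an was the furthest below 1 among the 46, at 15.0 and 6.90 CPM and a ratio of 0.461 (0.404 to 0.526). Hist1h2ap and Hist1h2an thus lay on opposite sides, and 80.5% of the stretches at the end of Hist1h2an were found in another H2A gene. The share of cells with a UMI followed the levels once each cell was thinned to 8000 UMIs. Hist1h2ap was then seen in 68.8% of cells (WT) and 75.3% (KO), against 81.9% and 83.4% unthinned. Hist1h2an was seen in 12.1% and 5.03%, against 27.3% and 12.9% unthinned.

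Of the other H2A genes, Hist3h2a stood at 13.0 CPM (WT) and 14.7 CPM (KO). Hist1h2ag stood at 9.86 and 7.65 CPM. Hist1h2ak stood at 8.05 and 5.65 CPM. The H2A copies encode nearly the same protein. Hist1h2af stood at 7.40 and 3.93 CPM, a ratio of 0.531 (0.443 to 0.635). Hist1h2ab stood at 5.76 and 6.33 CPM. Hist1h2ac stood at 4.32 and 2.61 CPM. Hist3h2a and Hist1h2ab were higher with the label KO, the latter with an interval of the ratio that held 1 (0.929 to 1.30), and the other 4 were lower. Hist2h2aa1 stood at 2.32 and 1.89 CPM, Hist1h2ai at 1.93 and 1.53 CPM, and Hist1h2al, which the annotation calls a processed pseudogene, at 1.31 and 0.992 CPM.

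The linker histones lay near equality. Hist1h1b, with no stretch of its end shared, had 212 CPM with the label WT and 224 CPM with the label KO, a ratio of 1.06 (1.03 to 1.09). Hist1h1e stood at 177 and 167 CPM, a ratio of 0.946 (0.917 to 0.975), but it overlaps an exon of Hist1h2be on the same strand and its whole end was found there, so its count is uncertain. Hist1h1a stood at 32.3 and 29.6 CPM. These subtypes differ in sequence, so their reads are told apart more easily than those of the core histones. Hist1h1c stood at 22.2 and 22.7 CPM, and Hist1h1d at 11.9 and 11.3 CPM. Summed, the 6 H1 genes had 456 and 455 CPM, a ratio of 0.999 (0.980 to 1.02).

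Among the H4 genes Hist1h4i led, at 112 CPM with the label WT and 116 CPM with the label KO, a ratio of 1.04 (0.997 to 1.08). It has a poly(A) signal at its annotated end and none of its end shared. Hist1h4d stood at 41.6 and 33.1 CPM, a ratio of 0.796 (0.744 to 0.851). Hist4h4, alone on chromosome 6, stood at 3.94 and 3.40 CPM. All H4 genes encode the same protein. Hist1h4c stood at 3.01 and 2.5 CPM, Hist2h4 at 3.03 and 1.98 CPM, Hist1h4h at 2.39 and 2.38 CPM and Hist1h4b at 2.48 and 1.77 CPM. Hist1h4a stood at 1.0 and 1.11 CPM. Hist1h4j, from 39 and 80 UMIs, had the second highest ratio of the 46, 1.64 (1.10 to 2.47).

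Among the H2B genes Hist3h2ba led, at 31.4 CPM with the label WT and 40.7 CPM with the label KO, a ratio of 1.30 (1.21 to 1.39). Hist1h2bc stood at 23.0 and 26.2 CPM, a ratio of 1.14 (1.05 to 1.23). Hist1h2bj, beside Hist1h2ag on chromosome 13, stood at 8.50 and 6.39 CPM. The first pair, the highest H2B genes, were thus higher with the label KO, while Hist1h2bj was lower. Hist1h2bm stood at 6.21 and 4.75 CPM, Hist1h2bk at 4.82 and 3.82 CPM, and the Hist2h2bb identifier ENSMUSG00000105827 at 4.85 and 3.19 CPM. Hist1h2be stood at 3.70 and 3.03 CPM, Hist2h2be at 3.10 and 2.88 CPM, and Hist1h2bb at 2.79 and 1.96 CPM. All of these were lower with the label KO, though the intervals of the ratio held 1 for Hist1h2be (0.653 to 1.03) and Hist2h2be (0.729 to 1.18). Hist1h2bn stood at 2.22 and 1.51 CPM, Hist1h2bf at 1.27 and 1.35 CPM and Hist1h2bg at 1.19 and 1.28 CPM, the last 2 with intervals of the ratio that held 1.

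The 7 H3 genes with 100 UMIs or more were low, and each was lower with the label KO. Hist1h3c stood at 16.6 CPM (WT) and 14.8 CPM (KO), and Hist1h3e at 5.40 and 4.23 CPM. Hist1h3i stood at 3.99 and 2.37 CPM, a ratio of 0.593 (0.466 to 0.753). Hist1h3a stood at 2.91 and 2.04 CPM, Hist1h3d at 1.79 and 1.49 CPM, Hist1h3b at 1.55 and 1.39 CPM and Hist1h3g at 1.34 and 1.11 CPM. The intervals of the ratio held 1 for Hist1h3d (0.597 to 1.16), Hist1h3b (0.633 to 1.27) and Hist1h3g (0.563 to 1.22). Summed, the 12 H3 genes had 36.6 and 29.7 CPM, a ratio of 0.811 (0.755 to 0.871). The 19 members with 1 to 99 UMIs were led by Hist1h2bl, and among them was Hist1h1t, the H1 gene of the testis, with 2 UMIs in each library.

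Over all kept cells, the summed members stood at 1274 CPM (1264 to 1285) with the label WT and 1399 CPM (1389 to 1409) with the label KO, a ratio of 1.10 (1.09 to 1.11). The sum lay on the other side of 1 once Hist1h2ap was left out. Without it the other 68 members stood at 994 CPM (WT) and 934 CPM (KO), a ratio of 0.940 (0.927 to 0.952). Hist1h2ap made up 22.0% of the members' UMIs with the label WT and 33.2% with the label KO. With all members left out that shared at least 50% of their end or had no transcript here, the remaining 31 had a summed ratio of 0.971 (0.957 to 0.986). The sum thus hid members on both sides of 1.

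Of the 46 members with 100 UMIs or more, 34 had a ratio below 1 and 12 above it, and the interval lay wholly below 1 for 22, wholly above 1 for 6 and held 1 for 18. Among the 12183 genes with as many UMIs, 48.4% had a ratio below 1, 14.8% an interval wholly below 1 and 13.9% one wholly above 1, and these genes were not matched to the members in UMIs. Of the 60 members with at least 20 UMIs, 2 were at least 1.5-fold higher with the label KO, Hist1h2ap and Hist1h4j, against 2.68% of the 14568 genes with as many UMIs. On the lower side, 11 members were at least 1.5-fold lower, against 4.04% of the genes. Their median ratio was 0.821, and that of all 14568 genes was 1.0. The lowest of the 60 were Hist1h2an, Hist1h4n (16 and 10 UMIs) and Hist1h2af. Among members with at least 20 UMIs, the 31 whose end was shared for 50% or more had a median ratio of 0.755 with 4 above 1, and the 27 whose end was shared for less had a median of 0.887 with 10 above 1.

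**Figure D2:**
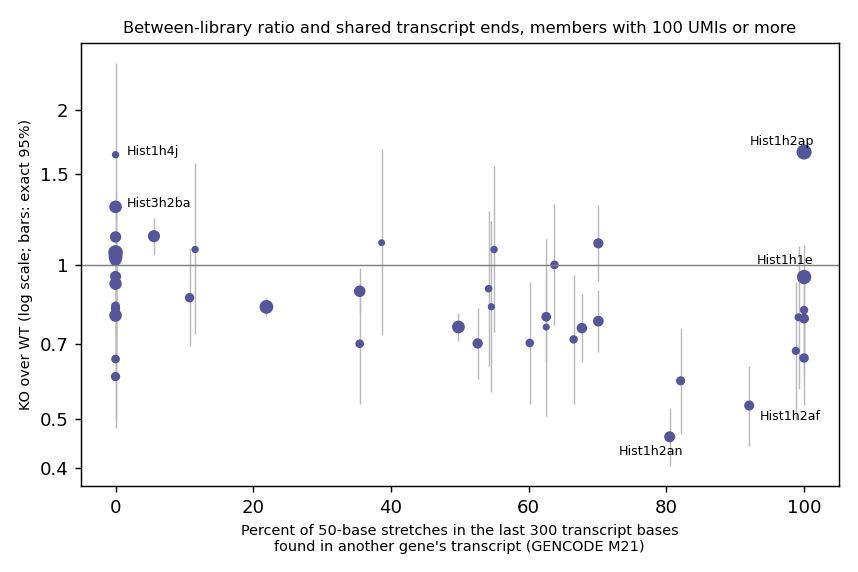
Ratio of KO over WT, on a log scale with bars for the exact 95% interval of counting error, against the percentage of 50-base stretches in the last 300 transcript bases that occur in another gene's transcript, for the 45 members with 100 UMIs or more and a transcript; larger points hold more UMIs. Hist1h2ap (1.66) and Hist1h2an (0.461), the highest and the lowest of them, lie at 100% and 80.5% shared.

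To ask where the members were counted, cells were gated by the number of class markers with a UMI, using no histone gene, and the classes are called "-like" for that reason. The gates gave 821 and 1172 optic vesicle-like cells (WT and KO), 530 and 808 mesenchyme-like, 66 and 99 endothelium-like, 56 and 43 ectoderm-like, 38 and 52 erythrocyte-like, 34 and 36 neural crest-like, 31 and 48 neural ectoderm-like and 17 and 5 macrophage-like cells. No class was named for 87 and 141 cells. In each class, 3 or more of its own markers were among its top 10 genes by fold, and at most 1 marker of another class was. The cells were gated on these same markers, so this follows in part from the gates and is no independent check of the classes. Cells that reached more than 1 gate numbered 239 (14.2%) and 282 (11.7%), and no doublets were removed. The gates' numbers were set after the data were seen, and 13 of 31 and 25 of 48 neural ectoderm-like cells and 125 of 821 and 146 of 1172 optic vesicle-like cells stood exactly at the gate.

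Summed members were highest in neural ectoderm-like cells, at 1423 CPM (WT) and 1644 CPM (KO), among the 7 classes with at least 30 cells in each library. Optic vesicle-like cells followed with 1351 and 1483 CPM, and mesenchyme-like cells with 1284 and 1423 CPM. Neural ectoderm-like and optic vesicle-like cells had overlapping intervals with the label WT (1334 to 1517 and 1336 to 1366 CPM) and not with the label KO. Neural crest-like cells stood at 909 and 1126 CPM, ectoderm-like cells at 825 and 1124 CPM, endothelium-like cells at 829 and 887 CPM and erythrocyte-like cells at 842 and 747 CPM. The intervals of these 4 classes overlapped with the label WT, while with the label KO those of neural crest-like and ectoderm-like cells overlapped and the other two stood apart below them. Globin held 328693 CPM (WT) and 341486 CPM (KO) in erythrocyte-like cells, which lowers the CPM of every other gene there. The place of erythrocyte-like cells among the classes was not compared with globin left out. The classes differed in scored phase too, as described further on, and the levels were not matched for it. G1-scored cells were 94.7% (WT) and 92.3% (KO) of erythrocyte-like and 59.1% and 51.5% of endothelium-like cells. Among neural crest-like cells they were 52.9% and 31.4%, and among ectoderm-like cells 37.5% and 26.8%. In mesenchyme-like cells they were 20.2% and 12.6%, in neural ectoderm-like 16.1% and 8.89% and in optic vesicle-like 12.1% and 13.8%. Globin was among the UMIs on which phase was scored, so erythrocyte-like cells had fewer UMIs left for the S and G2M genes. Whether this raised their G1-scored share was not tested, and that share is not taken as their phase. Macrophage-like cells, with 17 and 5 cells, stood at 1491 and 1136 CPM and were not compared further.

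Hist3h2ba, singled out after its values were seen, differed most between classes among the members with at least 1000 UMIs. It encodes an H2B and lies on chromosome 11 (chr11:58948920-58949533, plus strand), and it has a poly(A) signal at the end of its transcript and no stretch shared. It stood at 90.4 CPM (WT) and 112 CPM (KO) in ectoderm-like cells, at 57.4 and 51.5 CPM in neural ectoderm-like cells, at 43.2 and 59.6 CPM in optic vesicle-like cells and at 42.1 and 44.6 CPM in neural crest-like cells. In mesenchyme-like cells it stood at 7.94 and 6.19 CPM. It was thus high in ectoderm-like, neural and neural crest-like cells and low in mesenchyme-like cells of both libraries.

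Endothelium-like cells had 2 and 19 UMIs of Hist3h2ba (1.02 and 7.46 CPM), and erythrocyte-like cells 5 and 3 UMIs (3.65 and 1.58 CPM). Within a library, its level in optic vesicle-like over mesenchyme-like cells was 5.45-fold (4.38 to 6.87) with the label WT and 9.62-fold (7.73 to 12.1) with the label KO. Ectoderm-like over mesenchyme-like cells gave 11.4-fold (8.45 to 15.4) and 18.2-fold (13.3 to 24.9). The lens placode-like part of the ectoderm-like cells (39 and 22 cells) stood at 86.8 and 117 CPM and the other ectoderm-like cells (17 and 21) at 100.3 and 107 CPM, with overlapping intervals. A UMI of Hist3h2ba was seen in 73.2% and 72.1% of ectoderm-like cells at median depths of 17742 and 16219 UMIs, against 5.26% and 5.77% of erythrocyte-like cells at 34642 and 33622 UMIs.

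Hist3h2a, its neighbour on chromosome 11, was high in ectoderm-like cells too, at 32.3 CPM (WT) and 31.8 CPM (KO), but did not separate optic vesicle-like from mesenchyme-like cells: their ratios were 0.982 (0.796 to 1.22) and 1.0 (0.847 to 1.19). Hist1h2bc, another H2B gene, stood 2.2-fold (1.82 to 2.68) and 2.19-fold (1.88 to 2.57) higher in optic vesicle-like than in mesenchyme-like cells. Its level in neural crest-like cells was 63.2 CPM with the label WT and 25.7 CPM with the label KO. The linker histone gene Hist1h1b ran the other way, at 202 and 207 CPM in optic vesicle-like and 271 and 289 CPM in mesenchyme-like cells, ratios of 0.745 (0.712 to 0.780) and 0.717 (0.688 to 0.746). Hist2h2ac and Hist1h4d were also lower in optic vesicle-like cells, with ratios of 0.697 and 0.661 for the first and 0.728 and 0.629 for the second. Hist1h4i, Hist1h2ae and Hist1h2ap were higher there in both libraries, with ratios between 1.19 and 1.36.

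Between these classes, 7 of 55 members were at least 1.5-fold higher in optic vesicle-like cells with the label WT, against 16.9% of genes, and 10 were at least 1.5-fold lower, against 16.2%. In the library labelled KO, 7 of 53 were higher, against 17% of genes, and 18 were lower, against 14.5%. The higher members found in both libraries were Hist3h2ba, Hist1h2bc, Hist2h2be and Hist1h4a. With the label WT the interval of Hist1h4a held 1 (1.93, 0.828 to 5.22, from 29 and 7 UMIs). The share on the lower side was above that of all genes with the label KO, and the other shares were near or below it.

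**Figure D3:**
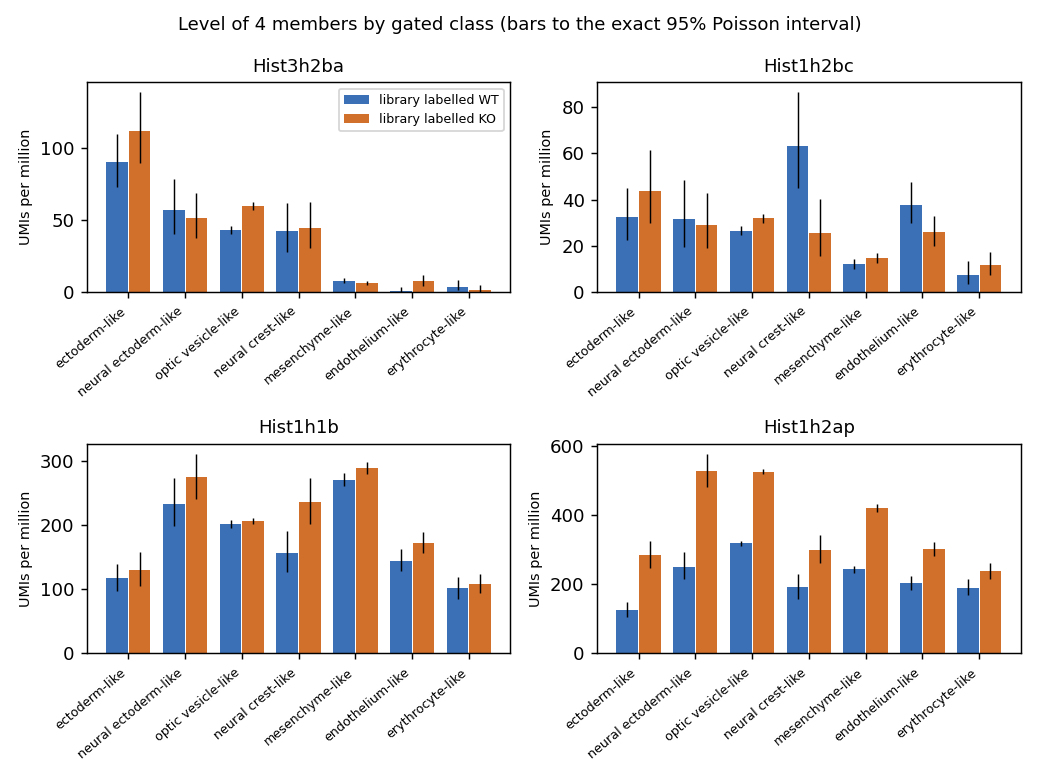
Level of Hist3h2ba, Hist1h2bc, Hist1h1b and Hist1h2ap, in CPM, in 7 gated classes, with blue bars for the library labelled WT, orange bars for the library labelled KO and lines for the exact 95% Poisson interval. Hist3h2ba is at 42.1 to 112 in the ectoderm-like, neural and neural crest-like classes and at 1.02 to 7.94 in the other 3, and Hist1h2ap is higher with the label KO in all 7.

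Hist1h2ap was higher with the label KO in each of the 7 classes. In optic vesicle-like cells it stood at 319 CPM (WT) and 526 CPM (KO), a ratio of 1.65 (1.60 to 1.69). In mesenchyme-like cells it stood at 243 and 420.2 CPM, a ratio of 1.73 (1.65 to 1.81). In ectoderm-like cells it stood at 124 and 283 CPM, a ratio of 2.27 (1.82 to 2.84). The contrast thus ran through epithelial and mesenchymal classes alike, and it was present in erythrocyte-like and endothelium-like cells as well. Its ratio was 2.10 (1.76 to 2.53) in neural ectoderm-like, 1.57 (1.25 to 1.98) in neural crest-like, 1.48 (1.30 to 1.67) in endothelium-like and 1.25 (1.07 to 1.46) in erythrocyte-like cells. Hist1h2an, by contrast, had a ratio below 1 in the 3 classes with at least 20 of its UMIs, from 0.413 (0.304 to 0.557) in mesenchyme-like cells to 0.550 (0.218 to 1.33) in endothelium-like cells. In ectoderm-like cells it had 5 UMIs in each library.

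In several classes the side of the sum depended on Hist1h2ap. In optic vesicle-like cells the ratio of KO over WT was 1.10 (1.08 to 1.11) with all members and 0.928 (0.912 to 0.944) without Hist1h2ap. In mesenchyme-like cells it was 1.11 (1.08 to 1.13) and 0.963 (0.940 to 0.988). Both largest classes thus changed side, and so did neural ectoderm-like cells, at 1.16 (1.06 to 1.25) and 0.952 (0.866 to 1.05), and endothelium-like cells, at 1.07 (1.0 to 1.14) and 0.937 (0.868 to 1.01). Ectoderm-like cells stayed above 1, at 1.36 (1.24 to 1.5) and 1.2 (1.08 to 1.34), and so did neural crest-like cells, at 1.24 (1.11 to 1.38) and 1.15 (1.02 to 1.30). Erythrocyte-like cells were below 1 either way, at 0.887 (0.820 to 0.960) and 0.781 (0.713 to 0.857).

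**Figure D4:**
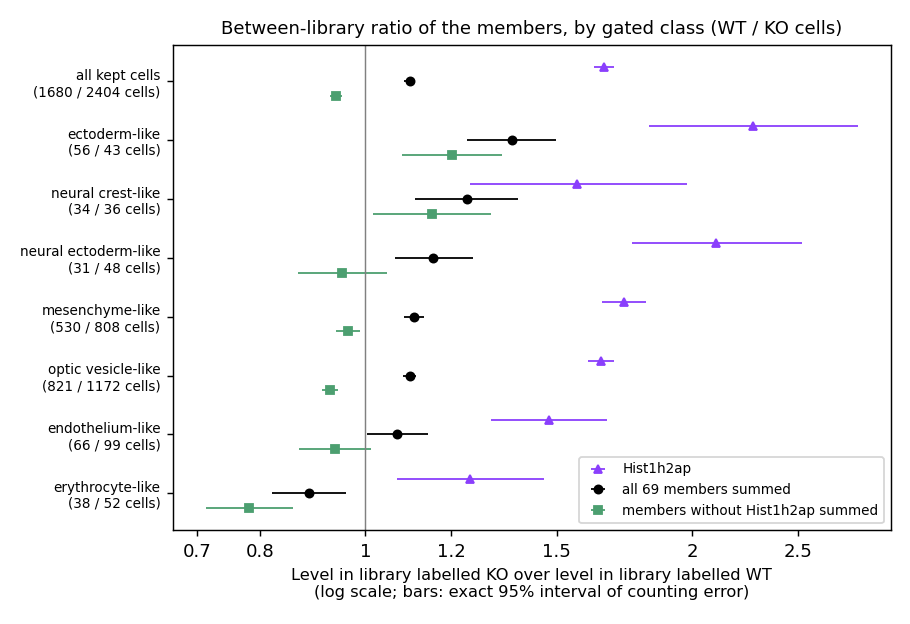
Level with the label KO over level with the label WT, on a log scale with bars for the exact 95% interval of counting error, for all kept cells and 7 gated classes, with triangles for Hist1h2ap, circles for the 69 members summed and squares for the sum without Hist1h2ap. The triangles lie above 1 in every class, and the squares lie above 1 in ectoderm-like (1.2) and neural crest-like (1.15) cells and below it elsewhere.

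Within the ectoderm-like cells, from which the lens forms, the ratio of the summed members lay above 1 in both parts. Lens placode-like cells held at least 2 of Pax6, Six3, Sox2, Foxe3, Prox1 and Eya1, and a larger share of these than of other surface ectoderm markers. All remaining ectoderm-like cells formed the other part. A marker that differs between the libraries can move cells between the parts, so the parts of the 2 libraries need not hold like cells. Lens placode-like cells stood at 850.3 CPM (WT) and 1139 CPM (KO), a ratio of 1.34 (1.19 to 1.51), and the other ectoderm-like cells at 754 and 1105 CPM, a ratio of 1.46 (1.23 to 1.74). By family, the ratio in ectoderm-like cells was 1.53 (1.30 to 1.80) for H2A, 1.30 (1.11 to 1.54) for H1, 1.35 (1.02 to 1.79) for H4 and 1.23 (0.979 to 1.55) for H2B, while H3 rested on 22 and 15 UMIs. Hist1h2ap held 135 of the 290 H2A UMIs of ectoderm-like cells with the label WT and 214 of 310 with the label KO. The ratio of H2A without Hist1h2ap was not computed there. Phases differed between these cells: 14 of 56 (25%) were S-scored and 21 (37.5%) G2M-scored with the label WT, against 6 of 41 (14.6%) and 24 (58.5%) with the label KO. Within G2M-scored ectoderm-like cells the members' ratio was 1.40 (1.22 to 1.61), within S-scored cells 1.72 (1.42 to 2.07) and within G1-scored cells 1.12 (0.901 to 1.40).

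Fewer members could be compared in the 5 small classes, 12 to 19, than in optic vesicle-like (53) and mesenchyme-like cells (48). In ectoderm-like cells 12 members had at least 20 UMIs, of which 3 were higher with the label KO (Hist1h2ap, Hist1h1e at a ratio of 1.53, and Hist1h4i at 1.52), against 8.84% of genes, and none lower, against 9.51%. The lowest there were Hist1h2ae (0.774), Hist2h2ac (0.903) and Hist1h1a (0.956), all with intervals that held 1. The linker histone gene Hist1h1e and the H4 gene Hist1h4i, near 1 over all cells, had intervals above 1 in this class (1.2 to 1.96 and 1.07 to 2.18) and also in neural crest-like cells, at ratios of 1.42 (1.04 to 1.95) and 1.61 (1.10 to 2.38). In neural ectoderm-like cells 2 of 14 were higher, against 8.59%, and 1 was lower, against 7.8%. The highest were Hist1h2ap, Hist1h2bj (1.59) and Hist1h1d (1.48), and the lowest Hist3h2a (0.494), Hist1h1a (0.811) and Hist1h4d (0.847), of which only the interval of Hist1h2ap left out 1.

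In optic vesicle-like cells 53 members were compared. The 2 that were higher were Hist1h2ap and Hist1h4j (1.53, 0.904 to 2.64), against 3.57% of genes, with Hist3h2ba (1.38) next. The 11 that were lower stood against 2.52% of genes, and the lowest were Hist2h3b (0.339, from 23 and 10 UMIs), Hist1h2bp (0.446, from 28 and 16 UMIs) and Hist1h2bl (0.455, from 36 and 21 UMIs), all with intervals below 1. Their median ratio was 0.804, and that of all genes 1.01.

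In mesenchyme-like cells 2 of 48 were higher, against 3.41% of genes: Hist1h4j (2.24, 1.01 to 5.46, from 9 and 25 UMIs) and Hist1h2ap, with Hist3h2a (1.25) next. There 9 were lower, against 3.69%, led by Hist1h2ac (0.338), Hist1h2an (0.413) and Hist1h3g (0.485, 0.216 to 1.04). Their median ratio was 0.876, and that of all genes 1.01. In both large classes members at least 1.5-fold lower were thus a larger share than among all genes, which were not matched to the members in UMIs.

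In endothelium-like cells 3 of 19 were higher, against 5.61% of genes, and of these the interval left out 1 only for Hist3h2ba (7.31, 1.76 to 64.7, from 2 and 19 UMIs). The others were Hist1h1a (1.62, 0.916 to 2.96) and Hist1h2ak (1.54, 0.581 to 4.5). Globin, as a mark of free RNA, stood at 245.5 CPM (WT) and 778 CPM (KO) in endothelium-like cells. Whether free RNA bears on the few UMIs of Hist3h2ba in endothelium-like cells was not tested. There 4 were lower, against 6.84%. The lowest were Hist2h2ac (0.513, 0.317 to 0.819), Hist1h2an (0.550, 0.218 to 1.33) and Hist1h2bj (0.634, 0.289 to 1.37), and only the interval of Hist2h2ac among these left out 1.

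In erythrocyte-like cells, where 13 were compared, Hist1h2bc reached 1.5-fold on the higher side, against 6.44% of genes, with an interval that held 1 (1.58, 0.719 to 3.74, from 10 and 22 UMIs). The next, Hist1h1c and Hist1h1d (both 1.27), also had intervals that held 1. There 5 were lower, against 8.8%, and the 3 lowest had intervals below 1: Hist1h2bj (0.327, 0.138 to 0.720), Hist1h4d (0.512, 0.326 to 0.795) and Hist2h2ac (0.569, 0.352 to 0.913).

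In neural crest-like cells 4 of 12 were higher, against 13.8%. Hist2h2ac had the highest ratio there (1.87, 0.918 to 4.06, from 12 and 27 UMIs), with an interval that held 1, while the intervals of Hist1h4i (1.61) and Hist1h2ap (1.57), the next, lay above 1. There 3 were lower, against 7.17%, of which the interval of Hist1h2bc (0.406, 0.222 to 0.720) left out 1 and those of Hist3h2a (0.482, 0.207 to 1.07) and Hist1h1c (0.637, 0.285 to 1.39) did not.

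Because replication-dependent histone mRNA is made in S phase, cells were scored for phase on the S and G2M gene lists of Seurat, which hold no member, after thinning each cell to 8000 UMIs. This left out no cell with the label WT and 99 with the label KO. The cut of each score was its median over the cells of both libraries pooled. Cells above a cut were scored S or G2M by the larger score, and all others G1. S-scored cells were 39.5% (WT) and 41.0% (KO), G2M-scored cells 40.5% and 41.8%, and G1-scored cells 20.1% and 17.2%. These shares follow in large part from the cuts and are not measured fractions of the cell cycle. A score is a range and not a type: 272 cells (16.2%) and 404 cells (17.5%) lay within 0.2 SD of a boundary.

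The summed members were highest in S-scored cells of both libraries. They stood at 1158 CPM in G1-scored, 1560 CPM in S-scored and 1074 CPM in G2M-scored cells with the label WT, and at 1233, 1765 and 1167 CPM with the label KO. S-scored over G1-scored gave a ratio of 1.35 (1.32 to 1.38) and 1.43 (1.40 to 1.46). Without Hist1h2ap the ratios were 1.33 and 1.46. These ratios pool cells of all classes, which differed in summed level and in scored phase, and they were not matched for class. The phase ratios of single members, families and companion lists given below pool the classes in the same way.

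The 2 large classes differed in the ratio of S-scored over G1-scored cells. In optic vesicle-like cells the ratio of S-scored over G1-scored was 1.33 (1.28 to 1.38) and 1.32 (1.28 to 1.36). In mesenchyme-like cells it was 0.963 (0.923 to 1.0) and 1.01 (0.969 to 1.05). G1-scored mesenchyme-like cells stood at 1579 and 1668 CPM, close to the S-scored at 1520 and 1686 CPM, while G2M-scored cells stood at 949 and 1096 CPM. The interval lay above 1 in optic vesicle-like cells and held 1 in mesenchyme-like cells, and the difference between the classes was not tested.

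**Figure D5:**
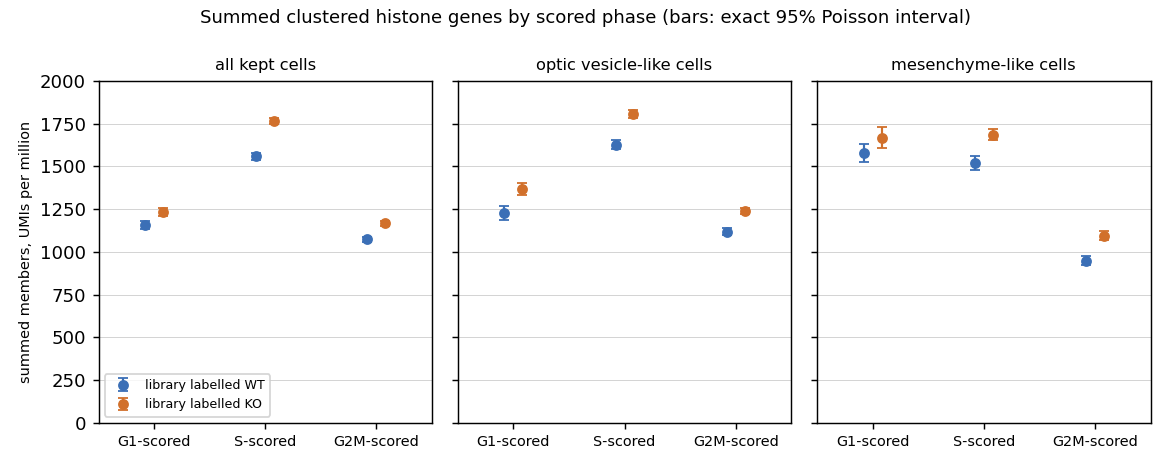
Summed level of the 69 members, in CPM, in G1-, S- and G2M-scored cells with at least 8000 UMIs, for all kept cells, optic vesicle-like cells and mesenchyme-like cells, with blue points for the library labelled WT, orange points for the library labelled KO and bars for the exact 95% Poisson interval. S-scored cells are highest over all cells (1560 and 1765) and in optic vesicle-like cells, and in mesenchyme-like cells the G1-scored cells (1579 and 1668) reach the level of the S-scored.

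Members differed in their phase ratio. Of 51 members with at least 20 UMIs over S- and G1-scored cells with the label WT, 13 were at least 1.5-fold higher in S, against 8.33% of genes, and of 49 with the label KO, 16 were, against 8.13%. The median ratio was 1.23 and 1.36. The H2A gene Hist1h2ae had a ratio of 1.60 (1.48 to 1.74) and 1.73 (1.59 to 1.88), and the linker histone gene Hist1h1a one of 2.2 (1.87 to 2.60) and 1.71 (1.48 to 1.97). Hist1h1b had 1.40 and 1.59, and Hist1h2an, low as it was, 1.70 and 1.91.

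Not every member had a ratio above 1. Of the 51 with the label WT, 14 had a ratio below 1, and 1 of them an interval below 1. This was the H2B gene Hist1h2bj (0.747, 0.564 to 0.992), whose ratio with the label KO was 1.30 (0.946 to 1.82). Of the 49 with the label KO, 3 had a ratio below 1, all with intervals that held it. These counts were not set against the share of all genes with a ratio below 1. A single such interval among 51 members can arise from counting error alone, so Hist1h2bj is not shown to be lower in S. Hist3h2ba stood at 27.2, 32.1 and 32.9 CPM in G1-, S- and G2M-scored cells with the label WT and at 38.5, 39.9 and 42.6 CPM with the label KO, and its ratio of S-scored over G1-scored was 1.18 (1.01 to 1.39) and 1.03 (0.915 to 1.17). Hist3h2a had a ratio of 1.17 and 1.06, with intervals that held 1. Hist1h2bc had a ratio of 0.990 and 1.0 and was lowest in G2M-scored cells, at 13.4 and 17.4 CPM against 30.2 and 32.9 CPM in G1. Both Hist3 genes carry a poly(A) signal at the end of the transcript, but as a group the members with one had a ratio of 1.41 (1.34 to 1.48) and 1.40 (1.34 to 1.46), close to the 1.34 (1.30 to 1.37) and 1.44 (1.41 to 1.48) of those without.

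By family, S-scored over G1-scored was 1.37 (WT) and 1.53 (KO) for H1, 1.41 and 1.44 for H2A, 1.31 and 1.35 for H4, 1.17 and 1.35 for H3 and 1.07 and 1.13 for H2B. H2B, in which Hist3h2ba and Hist1h2bc hold most UMIs, was thus the lowest in both libraries. Within each phase the summed members' ratio of KO over WT was 1.06 (1.04 to 1.09) in G1-scored, 1.13 (1.11 to 1.15) in S-scored and 1.09 (1.07 to 1.11) in G2M-scored cells. Hist1h2ap alone had 1.72 in G1-scored, 1.70 in S-scored and 1.61 in G2M-scored cells.

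No gene of 6 companion lists was 1.5-fold apart between the libraries, against 2.68% higher and 4.04% lower of the 14568 genes with at least 20 UMIs. Those genes were not matched to the lists in UMIs. The replication-independent histones (11 genes) summed to 11379 CPM (WT) and 11938 CPM (KO), a ratio of 1.05, with H2afz, the H2A.Z gene, at 4260 and 4387 CPM, H3f3a at 2045 and 2213 CPM and H3f3b, both H3.3 genes, at 2029 and 2090 CPM. Their sum stood above that of the clustered members, though H2afj (117 and 120.0 CPM) and H1fx were each below Hist1h2ap, Hist1h1b and Hist1h1e. H1fx (114 and 82.2 CPM, ratio 0.723) was the lowest of that list and H2afv (901 and 1061 CPM, ratio 1.18) the highest. H2afx, whose gene also gives a stem-loop transcript, stood at 402 and 463 CPM, a ratio of 1.15.

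The 14 genes of histone mRNA transcription and processing summed to 612 CPM (WT) and 605 CPM (KO), with a median ratio of 0.988. Slbp stood at 158 and 157 CPM, and Npat, the coactivator of histone genes, at 15.3 and 15.8 CPM. The 13 histone chaperones had a median ratio of 0.978, with Nasp, which holds H1 and H3-H4, at 573 and 548 CPM, and Supt16, of the FACT complex, lowest at 190.2 and 138 CPM (ratio 0.727). The 6 MCM helicase genes had a median ratio of 0.955. The S-phase list (43 genes) had 14 above 1 and a median of 0.985, and the G2M list (54 genes) 26 above 1 and a median of 0.987. The median of all genes with at least 20 UMIs was 1.0, and 51.1% of them had a ratio above 1.

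S-scored over G1-scored, the processing genes had a ratio of 1.41 (WT) and 1.47 (KO), the MCM genes 1.33 and 1.44, the chaperones 1.35 and 1.35 and the replication-independent histones 1.21 and 1.24. Slbp, Nasp, Casp8ap2 and Chaf1b are themselves in the S list that scored the cells, and so are Ccne2, Mcm2, Mcm4, Mcm5 and Mcm6. The ratios of the processing, MCM and chaperone lists thus follow in part from the scoring. Over the 14 points of class and library, the genes whose log2(CPM + 1) followed the summed members most closely, of 12137 genes, were Hspe1 (Pearson r = 0.959), Dctpp1 (0.953), Ranbp1 (0.934), Dpysl4 (0.933) and 2610301B20Rik (0.932). Hspe1 encodes a mitochondrial chaperonin, Dctpp1 a dCTP pyrophosphatase and Ranbp1 a regulator of Ran. The 14 points share 2 libraries and differ in cell number from 31 to 1172.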

How the data were processed

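A 10x Chromium 3′ library (kit v3 per the labels) was made from each of 2 embryos, 1 WT and 1 Mab21l1-null. The deposited counts are whole UMI counts per gene and barcode that the authors made with Cell Ranger 2.2 (mm10, GRCm38) and aggregated, a step that can subsample reads; they carry no scaling. Such pipelines leave out reads that map equally well to more than 1 gene, which bears on copied histone genes. Hist1h2ap held the most UMIs although its annotated end is shared whole, and how its reads were assigned was not tested.

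Barcodes were kept as cells when they held 1500 to 8000 genes and mitochondrial UMIs made up no more than 5%. No doublets were called. UMIs were summed per library and class and divided by all UMIs of those cells (CPM). With 1 library per genotype no test was run: levels have exact Poisson, shares exact Clopper-Pearson and ratios exact conditional binomial 95% intervals, for counting error only. Classes were gated by markers with a UMI, from 3 (ectoderm, optic vesicle, neural ectoderm, neural crest) to 8 (erythrocyte), and cells reaching several gates went to the class with the larger share of its markers. Phase was scored on cells thinned to 8000 UMIs, with cuts at the medians of both libraries pooled. Members with at least 100 UMIs were named, and per class the 3 highest and 3 lowest ratios among members with at least 20 UMIs. The members and lists were chosen with earlier results of these data known. Python 3.11.15, NumPy 2.4.6, pandas 2.3.3, SciPy 1.17.1 and matplotlib 3.10.9 were used, and the scripts were tested on simulated data. Alternatives changed the limits on cells, gates, scaling, denominator, depth, phase, minimum UMIs, fold and members summed.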

Additional observations from a re-analysis of the deposited data

Results flagged for a closer look

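The summed members were lower with the label KO in erythrocyte-like cells (ratio of KO over WT 0.887, 38 and 52 cells), while the ratio was above 1 in the other 6 classes compared. The difference was not tested.

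S-scored over G1-scored mesenchyme-like cells of the library labelled WT had a ratio of 0.963 for the summed members, against 1.33 in optic vesicle-like cells. The difference was not tested.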

How the results depend on the processing

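Of 119 alternative values, 67 stayed close to the reported value, 41 moved and 11 lay on the other side of 1; the cause was not tested. Over all cells, the ratio of 1.10 was 1.07 as the mean of the cells' own shares, 1.08 in thinned cells, 1.13 in S-scored and 1.06 in G1-scored cells, 0.940 without Hist1h2ap and 0.971 without members with 50% or more of their end shared. Without Hist1h2ap the class ratios were 1.2 (ectoderm-like), 0.928 (optic vesicle-like), 0.952 (neural ectoderm-like), 0.963 (mesenchyme-like), 0.937 (endothelium-like) and 0.781 (erythrocyte-like). In S-scored cells they were 1.72 (ectoderm-like), 1.49 (neural ectoderm-like), 1.45 (endothelium-like), 0.546 (erythrocyte-like, 2 cells against 1) and 1.98 (neural crest-like, 5 against 8). In G2M-scored cells they were 0.986 (neural ectoderm-like), 1.15 (mesenchyme-like), 0.799 (endothelium-like) and 0.894 (neural crest-like), and erythrocyte-like cells had no such cell with the label WT. Optic vesicle-like cells gave 1.04 by cells' own shares and 1.05 thinned, endothelium-like cells 0.983 thinned, and neural ectoderm-like cells 1.05 with 1 more marker in the gate.

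Members at least 1.5-fold apart in either direction, of those compared and against the percentage of all genes at the same setting, numbered with at least 10 UMIs 7 of 18 against 24.4% (ectoderm-like), 6 of 22 against 23.3% (neural ectoderm-like), 12 of 27 against 16.8% (endothelium-like) and 11 of 25 against 22.6% (erythrocyte-like). With at least 50 UMIs they numbered 1 of 9 against 7.38% (neural ectoderm-like), 3 of 12 against 6.66% (endothelium-like), 3 of 9 against 6.31% (erythrocyte-like) and 4 of 7 against 11.7% (neural crest-like). With at least 1 UMI they numbered 31 of 52 against 39.1% (ectoderm-like), 20 of 63 against 22.9% (optic vesicle-like), 23 of 51 against 39.6% (neural ectoderm-like), 20 of 64 against 25.7% (mesenchyme-like), 36 of 58 against 33.8% (endothelium-like), 39 of 60 against 40.8% (erythrocyte-like) and 31 of 46 against 45.9% (neural crest-like). At 2-fold they numbered 1 of 12 against 4.77% (ectoderm-like), 4 of 53 against 1.66% (optic vesicle-like), 4 of 48 against 1.74% (mesenchyme-like), 1 of 19 against 2.91% (endothelium-like), 1 of 13 against 4.08% (erythrocyte-like) and 2 of 12 against 5.7% (neural crest-like).

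S-scored over G1-scored was 1.52 (WT) and 1.64 (KO) when scored on all UMIs, 1.51 (KO) without 4 histone-handling genes in the S list, 0.963 (WT) and 1.01 (KO) in mesenchyme-like cells and 1.32 (KO) in optic vesicle-like cells. No paired analysis was possible because each genotype had 1 library, and no replicate could be left out. Members with few UMIs are limited by counting error.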
